A study of Mus musculus with 12 samples.

Results

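Keratins are the intermediate filament proteins of epithelia, and their genes were followed here as 48 entries of a table of 24692, namely those whose symbol is Krt followed by a number alone. They were grouped by where each is known to act: 3 basal, 7 suprabasal, 3 outer root sheath or companion layer, 8 inner root sheath, 13 hair shaft, 6 simple epithelial and 8 other keratins. A keratin filament is built from a type I and a type II protein in equal amounts, and 26 entries are type I and 22 type II. Of the 48 entries, 32 reached 1 FPKM (fragments counted on a gene per transcript length and per library total) in at least 3 of the 12 libraries and were tested. The other 16 stayed at or below 2.91 FPKM in each library.

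RNA was sequenced from cell populations sorted by flow cytometry from back skin of adult male mice at postnatal day 26 to 27, in early anagen, the start of a hair growth phase. All 12 libraries came from mice carrying a green reporter at Sox2 and a red reporter under the smooth muscle actin (aSMA) promoter (Sox2:GFP/aSMA:dsRed), with no treatment or further allele given, and skin was taken apart with dispase and collagenase. The 4 populations, with 3 libraries each, are labelled dermal papilla (DP, replicates 1, 2 and 4), dermal sheath (DS, replicates 1, 4 and 5), hair follicle dermal stem cells (DC, replicates 1, 2 and 4) and interfollicular dermis (IFD, replicates 1, 2 and 6), and values below are given in that order. The library called DS replicate 1 is titled DSL1, where the L is not explained, and only its cell type label places it in DS. The labels name neither the antibodies nor the animals, so each p-value speaks only of how these libraries spread, and that spread may be partly technical.

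Each of these labels is a dermal, mesenchymal one, and keratins mark epithelial cells. The 10 fibroblast markers summed to 13606.5 to 24472.2 FPKM in DP and 9647.1 to 12173.6 in DC, but to 992.4 to 1949.4 in DS and 839.1 to 1581.4 in IFD. Trp63, a transcription factor that defines stratified epithelium, had 24.8, 14.8 and 8.86 FPKM in the DP libraries, 98.7, 116 and 147 in the DS libraries, 9.23, 20.8 and 16.4 in the DC libraries, and 98.1, 75.8 and 93.2 in the IFD libraries. The DS and IFD libraries thus held few fibroblast transcripts and the most Trp63, which goes against their labels, and they are called by label throughout. Trp63 is 1 of 12 keratinocyte markers, which include Krt1 and Krt10 and did not rank the populations as Trp63 did. They summed to 1441.5 to 4178.1 FPKM in DP, 1751.0 to 1823.8 in DS, 789.4 to 1489.7 in DC and 1687.3 to 2052.7 in IFD. In DP against DS, 2 of them were called higher and 2 lower. Keratins made up 1.74, 2.24 and 0.698% of the library total in DP, 1.17, 1.06 and 0.933% in DS, 0.472, 0.804 and 0.438% in DC, and 1.21, 1.41 and 1.48% in IFD. DP replicates 1 and 2 had the highest keratin sums of all libraries and stood apart from DP replicate 4, so DP results are also given without them. In such bulk samples, fewer cells of a type and less RNA per cell cannot be told apart. The part of epithelial cells in the sorted fractions was not tested.

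In skin, basal keratinocytes of epidermis and follicle make Krt5 with Krt14 or Krt15, and cells that leave the basal layer switch to Krt1 and Krt10. In the hair follicle each concentric layer has its own keratins, from the outer root sheath and companion layer through the inner root sheath to the hair shaft, whose sulphur-rich keratins are cross-linked with keratin-associated proteins. Layers of the follicle differ in when they form, since the inner root sheath is laid down before the shaft at the start of anagen.

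Almost all keratin genes lie in 2 clusters, which the reference shows for these entries too: 25 were on chromosome 11, where the type I genes other than Krt18 lie (99232761 to 100269951, GRCm38.p6), and 22 on chromosome 15 with the type II genes and Krt18 (101348315 to 102032026). The 5 members with the highest mean level were Krt10, Krt5, Krt71, Krt77 and Krt25, and they are shown as the most abundant keratins. The 150 bases before their RefSeq start sites (GRCm38.p6, minus strand, written 5′ to 3′) are shown, since TATAAA, marked in capitals, was found in 14 of the 34 keratins with a RefSeq promoter, against 7.57% of 32851 promoter windows of that length.
Krt10 (chr11:99389365-99389514): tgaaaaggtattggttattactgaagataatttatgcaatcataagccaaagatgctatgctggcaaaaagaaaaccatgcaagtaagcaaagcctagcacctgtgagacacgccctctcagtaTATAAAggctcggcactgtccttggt
Krt5 (chr15:101712906-101713055): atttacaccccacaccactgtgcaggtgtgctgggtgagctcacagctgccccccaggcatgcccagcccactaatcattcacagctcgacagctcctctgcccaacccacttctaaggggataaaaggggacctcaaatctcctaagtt
Krt71 (chr15:101743098-101743247): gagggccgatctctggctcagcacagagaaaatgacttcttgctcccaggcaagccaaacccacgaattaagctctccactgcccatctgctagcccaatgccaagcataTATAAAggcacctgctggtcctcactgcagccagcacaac
Krt77 (chr15:101869706-101869855): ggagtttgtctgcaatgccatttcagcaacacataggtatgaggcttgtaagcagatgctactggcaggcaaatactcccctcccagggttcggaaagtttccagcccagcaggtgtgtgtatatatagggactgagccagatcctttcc
Krt25 (chr11:99322952-99323101): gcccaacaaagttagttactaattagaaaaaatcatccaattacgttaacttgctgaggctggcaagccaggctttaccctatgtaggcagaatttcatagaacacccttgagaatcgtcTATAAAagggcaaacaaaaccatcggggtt
TATAAA began 26 bases before the start of Krt10, 40 before that of Krt71 and 30 before that of Krt25, and was not in the Krt5 or Krt77 windows. Only these exact letters were searched, and the similar letters gataaaa and tatatata are in the Krt5 and Krt77 windows. Bases just after the RefSeq start of Krt5 were not found in the GENCODE transcript used, unlike those of the other genes shown. Other letters searched on both strands were TGANTCA (AP-1), in 1 keratin and 4.24% of all windows, GCCNNNGGC (AP-2), in 4 and 9.61%, CTTTGA (LEF/TCF), in 4 and 7.93%, CCAAT, in 9 and 24.5%, and the GATA factor letters AGATAA, in 2 and 5.65%. The AGATAA of Krt10 began 126 bases before its start. CCAAT overlapped none of the marked TATAAA in the windows shown. Such matches describe letters only, and binding was not measured.

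The make-up of the keratin pool differed between the populations. Suprabasal keratins were 79.4, 62.4 and 67.5% of the keratin sum in DP, 3.58, 8.57 and 1.24% in DS, 37.4, 42.6 and 51.7% in DC, and 8.19, 9.29 and 14.6% in IFD. DP and DC libraries were all above the DS and IFD libraries, with DP above DC. Inner root sheath keratins were 6.1, 20.1 and 5.31% of the sum in DP, 52.2, 51.8 and 37.9% in DS, 30.4, 20.8 and 15.3% in DC, and 25.1, 21.3 and 22.7% in IFD, so the DS libraries were highest. Hair shaft keratins were at most 2.01% in DP, 1.63% in DS and 3.2% in DC, but 10.5 to 15.6% in IFD. That IFD share was almost all Krt35, which made up 91.9, 93.9 and 89.8% of the shaft sum there. Without Krt35 the shaft sums were 11.9, 68 and 14.8 FPKM in DP, 1.6, 10.5 and 25 in DS, 25.5, 32.9 and 12.1 in DC, and 32.3, 19.8 and 29 in IFD, so the populations overlapped. Suprabasal keratins were the leading class in each DP and DC library, and no class held over 29.7% of the sum in an IFD library. Basal keratins were 8.65, 9.69 and 15.1% in DP, 28.7, 27.3 and 39.6% in DS, 17.5, 23.2 and 18.3% in DC, and 21.7, 26.2 and 29.7% in IFD, with all DP libraries below the others. These sums were chosen from the keratin list and carry no test.

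**Figure D1:**
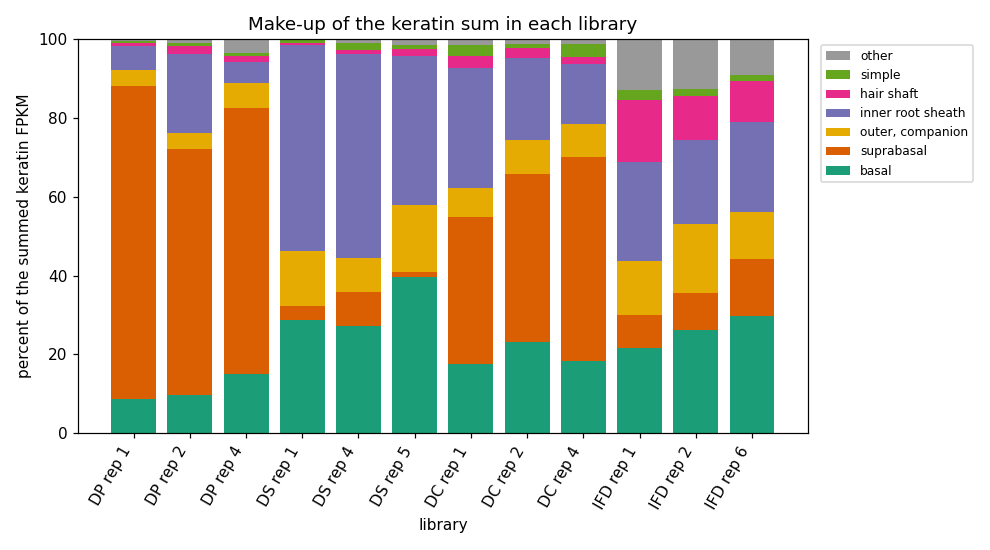
Share of the summed keratin FPKM (percent, vertical axis) held by each keratin class in each of the 12 libraries (horizontal axis). Suprabasal keratins fill 62.4 to 79.4% of the DP bars, inner root sheath keratins 37.9 to 52.2% of the DS bars, and hair shaft keratins, mostly Krt35, 10.5 to 15.6% of the IFD bars.

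Among the 4 populations, 20 of the 32 tested keratins differed by limma's moderated F test on log2(FPKM + 1), against 56.8% of all 12774 genes tested. The mean level was highest in DP for 12 keratins, in DS for 8, in DC for 2 and in IFD for 10. In the pairwise tests of the same fit, 7 keratins were higher and 8 lower in DP than in DS, where 49.8% of all genes passed, 16.4% higher and 33.4% lower. In DP against DC, 1 was higher and 1 lower (8.69% of all genes passed, 2.31% higher and 6.38% lower). In DS against DC, 7 were higher and 5 lower (43.9%, as 24.3% and 19.6%). Krt18 and Krt19, which are among the 20, reached 1 FPKM in DS libraries only and so were tested because of DS. Leaving them out gave 5 higher and 5 lower in DS than in DC, and 7 higher and 6 lower in DP than in DS. Krt78 passed the filter only with its DP libraries and Krt39 only with its IFD libraries, and both stay in the counts. In DC against IFD, 2 were higher and 11 lower (37.6%, as 17.9% and 19.7%). In DS against IFD, limma called none higher and 3 lower (2.26%, as 0.939% and 1.32%), and at an unadjusted p below 0.05 it gave 3 higher and 12 lower. In DP against IFD, 5 were higher and 10 lower (42.3%, as 13.7% and 28.6%). The F test count is near the share of all genes, so it is not a result about keratins.

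The median log2 fold change of the tested keratins was 0.15 in DP against DC, where that of all genes was -0.25. It was -0.15 against 0.13 for all genes in DS against DC, 0.21 against -0.36 in DP against DS, -0.45 against -0.14 in DC against IFD, -0.76 against 0.05 in DS against IFD, and -0.25 against -0.32 in DP against IFD. Scaling the libraries by median of ratios moved the median of all genes in DP against DS to 0 and the keratin split to 9 higher and 6 lower. The same scaling gave 4 higher and 5 lower keratins in DS against DC, where it no longer called Krt18, Krt19 and Krt71. Without Krt18 and Krt19 the split before scaling was 5 and 5. Comparisons that share a population share its libraries, so they are not independent of each other.

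A block for the replicate number was fitted in the 6 DP and DC libraries, which share their numbers, on the assumption that equal numbers pair samples. There 4 keratins passed in place of 2, 3 higher and 1 lower in DP. In the fit of all 12 libraries with no block, where 2 passed, the count was 0 without DC replicate 1, DC replicate 4 or DP replicate 2, 1 without DP replicate 1, 4 without DS replicate 5 and 6 without DP replicate 4. Without DP replicates 1 and 2 it was 3, all lower in DP. For DS against IFD the count was 5 without DP replicate 2 or DP replicate 4, which are in neither group but share the estimate of spread. For DS against DC it was 7 without DC replicate 1, and for DP against IFD 9 without DP replicate 1.

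**Figure D2:**
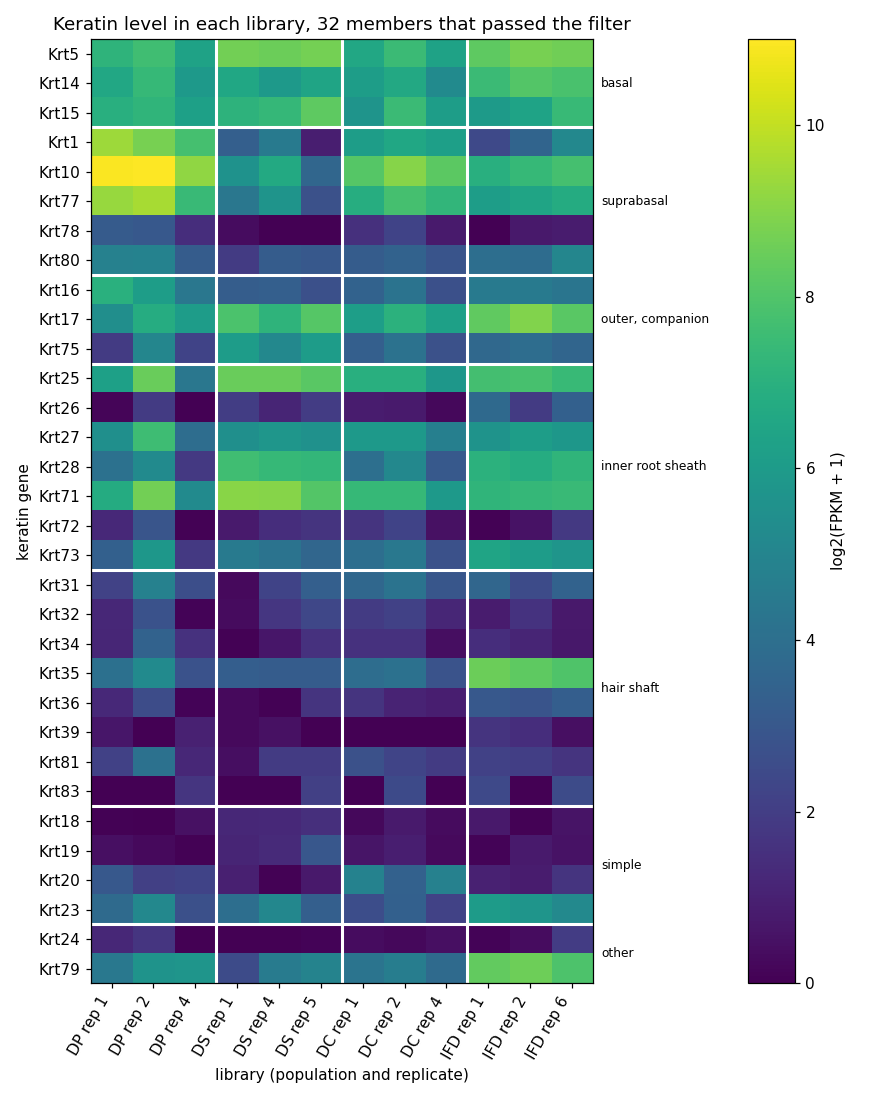
Level of the 32 tested keratins (rows, grouped by class) in each library (columns), as log2(FPKM + 1) by colour. The DP columns are brightest at Krt10, Krt1 and Krt77, the DS columns at Krt5, Krt71 and Krt25, and the IFD columns at Krt17, Krt5, Krt79 and Krt35.

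Basal keratins summed to 217.7 to 507.4 FPKM in DP and 186.5 to 456.1 in DC, below all libraries of DS (585.4 to 808.1) and IFD (550.3 to 797.6). Krt5, the type II keratin of basal cells, had 142, 198 and 81 FPKM in the DP libraries, 406, 366 and 411 in the DS libraries, 96.1, 179 and 79.4 in the DC libraries, and 305, 430.5 and 398 in the IFD libraries. All DS and IFD libraries were above all DP and DC libraries. Krt5 was lower in DP than in DS (log2 fold change -1.57, adjusted p = 0.00287) and than in IFD (log2 fold change -1.50, adjusted p = 0.00501). Krt5 was also higher in DS than in DC (log2 fold change 1.82, adjusted p = 0.00135) and lower in DC than in IFD (log2 fold change -1.74, adjusted p = 0.00225). An antisense gene, Gm44323, covers 5.87% of its exonic bases, and 8.52% of its 50-base windows occur in transcripts of other genes, chiefly Krt6a.

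Krt14, the type I partner of Krt5 in basal cells, had 96, 163 and 60.9 FPKM in the DP libraries, 92.3, 59.2 and 86.1 in the DS libraries, 69.3, 98.9 and 38 in the DC libraries, and 182, 266 and 229 in the IFD libraries. The IFD libraries were above all others, and the DS libraries lay within the range of the DP and DC libraries. Krt14 was lower in DC than in IFD (log2 fold change -1.79, adjusted p = 0.00335) and lower in DP than in IFD (log2 fold change -1.17, adjusted p = 0.0274). In DS against IFD the difference was -1.51 on the log2 scale and did not pass (adjusted p = 0.0687). It passed with median-of-ratios scaling (-1.57, adjusted p = 0.0411), with quantile normalization (-1.75, adjusted p = 0.0221), in a fit of both populations alone (adjusted p = 0.0174) and without DC replicate 4, DP replicate 2, DP replicate 4 or both DP replicates 1 and 2 (adjusted p = 0.0365 to 0.0446). The DP against IFD call ended for Krt14 without DP replicate 1 or 4, IFD replicate 2 or 6 (adjusted p = 0.0582 to 0.104), and it also ended with median-of-ratios scaling (adjusted p = 0.0978) and without the filter (adjusted p = 0.0948). Krt14 shares 14.4% of its 50-base windows with other genes, mostly Krt16.

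Krt15, a type I basal keratin of the follicle bulge, had 121, 147 and 75.9 FPKM in the DP libraries, 137, 159.9 and 311 in the DS libraries, 51.1, 178 and 69.1 in the DC libraries, and 63.7, 81.4 and 171 in the IFD libraries. The ranges of all populations overlapped, and no contrast passed. Its largest contrast was DS against DC (1.14 on the log2 scale, adjusted p = 0.0788). That contrast passed with quantile normalization (1.64, adjusted p = 0.0217) and without DC replicate 2 (1.66, adjusted p = 0.015).

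The ratio of Krt14 to Krt5 set the DS libraries apart. It was 0.677, 0.82 and 0.751 in DP, 0.227, 0.162 and 0.209 in DS, 0.721, 0.553 and 0.478 in DC, and 0.597, 0.617 and 0.577 in IFD. No DS library came near the lowest of the others. FPKM is scaled by transcript length, which allows such ratios, but the ratio of mRNAs is not that of proteins. With Krt15 added the type I shortfall is smaller: Krt15 to Krt5 was 0.853, 0.74 and 0.936 in DP, 0.337, 0.437 and 0.757 in DS, 0.531, 0.995 and 0.87 in DC, and 0.209, 0.189 and 0.43 in IFD. Summed over all keratins, type I to type II was 1.56, 1.65 and 1.47 in DP, 1.09, 1.06 and 1.51 in DS, 1.47, 1.66 and 1.55 in DC, and 1.61, 1.54 and 1.51 in IFD, with DS replicates 1 and 4 below every other library.

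Genes of the basal keratinocyte and its hemidesmosomes, the junctions that tie basal keratins to the basement membrane, were set beside Krt5 as a list. Their sums in DP replicates 1 and 2 (860.0 and 924.3 FPKM) were above all IFD libraries (652.9 to 779.7), unlike Krt5. Most of the mean sum in each population was Perp, so the sums do not speak for the other genes of the list. Of 10 tested, 5 were higher and none lower in DS than in DC (24.3% and 19.6% of all genes), and 5 were lower in DC than in IFD (19.7%). In DP, 3 were lower than in DS and 3 lower than in IFD. These DP counts are near the 33.4% and 28.6% of all genes, so they are not a result about this list. Between DS and IFD limma called 0, and 0 had an unadjusted p below 0.05. Perp, a desmosomal membrane protein, was the most abundant, at 598 ± 266 FPKM in DP, 601 ± 38.4 in DS, 186 ± 64.1 in DC and 471 ± 89.9 in IFD (SD, n = 3 each), and it was higher in DP than in DC (log2 fold change 1.60, adjusted p = 0.0193). Trp63 was higher in DS than in DC (log2 fold change 2.93, adjusted p = 4.08e-05) and lower in DP than in DS (log2 fold change -2.92, adjusted p = 3.9e-05). Cdh3, the P-cadherin of basal cells and hair matrix, was lower in DP than in DS (log2 fold change -3.10, adjusted p = 2.62e-05).

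Of 12 desmosomal and linker genes, whose products anchor keratin filaments at cell contacts, 8 were higher in DS than in DC (24.3% of all genes). In DC 8 were lower than in IFD (19.7% of all genes). In DP 3 were lower than in DS and 2 lower than in IFD, no more than the 33.4% and 28.6% of all genes. Ppl, the linker periplakin, was higher in DP than in DC (log2 fold change 1.40, adjusted p = 0.0401). Dsp, the desmoplakin that binds keratins, had 124, 152 and 54.8 FPKM in the DP libraries, 241, 113 and 105 in the DS libraries, 30.6, 52.5 and 29.4 in the DC libraries, and 124, 110.1 and 260.3 in the IFD libraries. Its DC libraries were the lowest, and it was higher in DS than in DC (log2 fold change 1.95, adjusted p = 0.00415).

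Suprabasal keratins separated DP from DS most widely: all 5 tested members were higher in DP than in DS (16.4% of all genes). Krt78 is among these 5 and passed the filter only with its DP libraries. Of the 5, 4 were lower in DS than in DC (19.6%), and 4 were higher in DP than in IFD (13.7%). Krt10, the type I keratin of differentiating epidermis, had 1959, 2052 and 571 FPKM in the DP libraries, 47.4, 101 and 11.5 in the DS libraries, 271, 516 and 296 in the DC libraries, and 120.1, 166 and 215 in the IFD libraries. Every DP library was above every other library, and DS replicate 5 was the lowest. Krt10 was higher in DP than in DS (log2 fold change 5.06 with SE 0.67, adjusted p = 7.93e-05), higher in DP than in IFD (log2 fold change 3.02 with SE 0.67, adjusted p = 0.00347) and lower in DS than in DC (log2 fold change -3.13 with SE 0.67, adjusted p = 0.00244). Between DP and DC the difference was 1.93 and did not pass (adjusted p = 0.0932), but passed with the replicate block in these 6 libraries (SE 0.36, adjusted p = 0.0217). In the fit of all libraries with no block it passed without DP replicate 4 (2.53, adjusted p = 0.0313) or DS replicate 5 (1.93, adjusted p = 0.0369). The DP against IFD call ended without DP replicates 1 and 2 together (1.81, adjusted p = 0.134). Krt10 was higher in DC than in IFD in a fit of both populations alone (1.09, adjusted p = 0.0341). An antisense gene, Gm11940, covers 6.91% of the exonic bases of Krt10.

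Krt1, the type II partner of Krt10, had 670.2, 427 and 216 FPKM in the DP libraries, 9.09, 21.6 and 0.914 in the DS libraries, 68.4, 92.9 and 72.6 in the DC libraries, and 4.31, 10.6 and 34.6 in the IFD libraries. The DP libraries were highest and the DC libraries next, and the DS and IFD libraries overlapped each other below them. Krt1 was higher in DP than in DS (log2 fold change 5.71 with SE 0.81, adjusted p = 0.000129) and than in IFD (log2 fold change 4.93 with SE 0.81, adjusted p = 0.000526), lower in DS than in DC (log2 fold change -3.37 with SE 0.81, adjusted p = 0.00501) and higher in DC than in IFD (log2 fold change 2.59 with SE 0.81, adjusted p = 0.0235). In DP against DC the difference was 2.34 (adjusted p = 0.0925), with the replicate block SE 0.32 and adjusted p = 0.00859, without DS replicate 5 adjusted p = 0.0369, and in a fit of both populations alone adjusted p = 0.0229. The DC against IFD call ended for Krt1 without DC replicate 1 or 2, IFD replicate 1 or 2 (adjusted p = 0.0516 to 0.107), and without the filter (adjusted p = 0.108).

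Krt77, a type II keratin of suprabasal skin epithelium, had 630.5, 749.9 and 174 FPKM in the DP libraries, 19.7, 51.1 and 5.58 in the DS libraries, 114, 214 and 151 in the DC libraries, and 68.5, 84.4 and 109 in the IFD libraries. The order of its means over the populations was that of Krt10, but DP replicate 4 lay below DC replicate 2. Krt77 was higher in DP than in DS (log2 fold change 4.50 with SE 0.66, adjusted p = 0.00017), lower in DS than in DC (log2 fold change -3.02 with SE 0.66, adjusted p = 0.0029) and higher in DP than in IFD (log2 fold change 2.33, adjusted p = 0.0134). For DP and DC its difference was 1.49 (adjusted p = 0.182), and it passed without DP replicate 4 (2.15, adjusted p = 0.0495). In DS against IFD, -2.17 did not pass (adjusted p = 0.121), and passed without DS replicate 4 (-2.89, adjusted p = 0.0429). The DP against IFD call ended for Krt77 without DP replicate 1 or 2 (adjusted p = 0.0508 to 0.0519), without both (adjusted p = 0.374) and without the filter (adjusted p = 0.0698). Krt10 to Krt77 stayed within a narrow range, at 3.11, 2.74 and 3.29 in DP, 2.41, 1.98 and 2.06 in DS, 2.37, 2.41 and 1.95 in DC, and 1.75, 1.96 and 1.98 in IFD, with the DP libraries above all others.

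Krt78, a low type II keratin, had 7.94, 7.16 and 1.72 FPKM in the DP libraries, 0.293, 0 and 0.0155 in the DS libraries, 1.89, 3.68 and 0.723 in the DC libraries, and 0, 0.685 and 0.804 in the IFD libraries. It was above 1 FPKM only in the DP libraries and DC replicates 1 and 2. The gene was therefore tested because of DP, where it was high, and its DP calls lean on that. Krt78 was higher in DP than in DS (log2 fold change 2.41, adjusted p = 0.00125) and than in IFD (log2 fold change 2.01, adjusted p = 0.00516), and lower in DS than in DC (log2 fold change -1.38, adjusted p = 0.0319). The DS against DC call ended for Krt78 without DS replicate 4 or 5, DC replicate 1 or 2 (adjusted p = 0.0779 to 0.134), and with the block over 12 libraries (adjusted p = 0.0634). In DP against DC it passed without DP replicate 4 (1.58, adjusted p = 0.0311). Both DP calls ended without DP replicates 1 and 2 together (adjusted p = 0.0776 against DS and 0.217 against IFD).

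Krt80, a type II keratin of many differentiating epithelia, had 27.8, 28.3 and 8.07 FPKM in the DP libraries, 2.79, 8.34 and 7.24 in the DS libraries, 8.18, 10.03 and 6.32 in the DC libraries, and 14.6, 13.9 and 32 in the IFD libraries. DP replicate 4 lay among the DS libraries, and IFD replicate 6 was the highest. Krt80 was higher in DP than in DS (log2 fold change 1.57, adjusted p = 0.0168). That call ended for Krt80 without DP replicate 1 or 2, DS replicate 1 (adjusted p = 0.0659 to 0.0739), without the filter (adjusted p = 0.0719) and without DP replicates 1 and 2 together (0.45, adjusted p = 0.543). Without DP replicate 4 it was higher in DP than in DC (1.68, adjusted p = 0.0256), lower in DC than in IFD (-1.12, adjusted p = 0.0312) and lower in DS than in IFD (-1.57, adjusted p = 0.0426). The other suprabasal members, Krt2 and Krt9 of interfollicular and footpad epidermis, reached at most 1.17 and 0.242 FPKM in any library.

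Cornification genes, which act in the outermost living layers, were mostly higher in DP than in DS: 7 of 11 passed higher and none lower (16.4% and 33.4% of all genes). In DS 3 were lower and none higher than in DC (19.6% and 24.3%), and 2 were higher in DP than in DC (2.31%). In DC against IFD none was higher and 5 were lower (17.9% and 19.7%). In DS against IFD 4 were lower (1.32%). In DP against IFD 2 were higher and 3 lower, near the share of all genes (13.7% and 28.6%). Krtdap, a secreted protein of differentiating keratinocytes, had 2064, 2287 and 449 FPKM in the DP libraries, 27, 104 and 8.88 in the DS libraries, 294, 585 and 317 in the DC libraries, and 465, 549.6 and 198 in the IFD libraries. Krtdap was higher in DP than in DS (log2 fold change 5.39, adjusted p = 0.00017) and lower in DS than in DC (log2 fold change -3.63, adjusted p = 0.00283). Sbsn (suprabasin) was higher in DP than in DS (log2 fold change 3.42, adjusted p = 7.98e-05), and Dmkn (dermokine) likewise (log2 fold change 2.60, adjusted p = 0.00341). DP replicates 1 and 2 were the highest of all libraries for each of these 3 genes, as for Krt10.

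Outer root sheath and companion keratins did not move together. Krt16, a type I keratin of outer root sheath and of stressed epidermis, had 127, 69.4 and 19.7 FPKM in the DP libraries, 8.44, 9.20 and 5.44 in the DS libraries, 10.1, 17 and 5.52 in the DC libraries, and 21.4, 22 and 18.5 in the IFD libraries. The DP range ran from the level of the IFD libraries to several times it. Krt16 was higher in DP than in DC (log2 fold change 2.39 with SE 0.54, adjusted p = 0.0168) and than in DS (log2 fold change 2.74 with SE 0.54, adjusted p = 0.00118). With the replicate block in the DP and DC libraries the DP against DC call also passed. The DP against DC call ended for Krt16 without DP replicate 1 or 2, DC replicate 1 or 4 (adjusted p = 0.0515 to 0.0623), without the filter (adjusted p = 0.0821), in a fit of both populations alone (adjusted p = 0.0844) and without DP replicates 1 and 2 (0.92, adjusted p = 0.266). Its DP against DS call ended without DP replicates 1 and 2 (1.28, adjusted p = 0.0547). Krt16 was also higher in DP than in IFD with median-of-ratios scaling (1.78, adjusted p = 0.0201), with quantile normalization (1.47, adjusted p = 0.0286) and without DC replicate 2, DC replicate 4 or DP replicate 4 (adjusted p = 0.00161 to 0.0477). It was lower in DC than in IFD (-0.98) in a fit of both populations alone, without DP replicate 4 and without DP replicates 1 and 2 (adjusted p = 0.0375 to 0.0491). In DS it was lower than in IFD in a fit of both alone (-1.34, adjusted p = 0.0213). Krt16 shares 37.6% of its 50-base windows with other genes, and 25.2% of its windows with Gm11597, so its level is uncertain.

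Krt17, a type I keratin of outer root sheath that pairs with Krt6, had 41.9, 113 and 67.3 FPKM in the DP libraries, 235, 141 and 276 in the DS libraries, 70.7, 132 and 74.8 in the DC libraries, and 319, 485 and 288 in the IFD libraries. The IFD libraries were highest, the DS libraries next, and those of DP and DC overlapped below. Krt17 was lower in DP than in DS (log2 fold change -1.60, adjusted p = 0.00461) and than in IFD (log2 fold change -2.36, adjusted p = 0.000552). Krt17 was also higher in DS than in DC (log2 fold change 1.23, adjusted p = 0.0217) and lower in DC than in IFD (log2 fold change -1.99, adjusted p = 0.00181). The DS against DC call ended for Krt17 without DS replicate 1 or 5, DC replicate 1 or 4 (adjusted p = 0.0621 to 0.0847), and without the filter (adjusted p = 0.0808).

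Krt75, the type II keratin of the companion layer between outer and inner root sheath, had 2.79, 31.9 and 3.60 FPKM in the DP libraries, 66.5, 34 and 65.8 in the DS libraries, 9.17, 16.9 and 5.61 in the DC libraries, and 12.3, 14.2 and 11 in the IFD libraries. The DS libraries were highest, and DP replicate 2 was almost at the lowest DS library. Krt75 was lower in DP than in DS (log2 fold change -2.70 with SE 0.66, adjusted p = 0.00464) and higher in DS than in DC (log2 fold change 2.35 with SE 0.66, adjusted p = 0.0119), where the call ended without the filter (adjusted p = 0.0632). In DS against IFD the difference was 2.01 (adjusted p = 0.152), and it passed without DP replicate 2 (2.01, adjusted p = 0.0137), without DP replicates 1 and 2 (adjusted p = 0.0149) and in a fit of both populations alone (adjusted p = 0.00765). Without DP replicate 2, Krt75 was also lower in DP than in IFD (-1.69, adjusted p = 0.00641). An antisense gene, Gm44460, covers 3.95% of its exonic bases.

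Genes of the bulge and outer root sheath gave a mixed picture. Of 8 tested, 5 were higher and 3 lower in DS than in DC (24.3% and 19.6% of all genes). In DP 2 were higher and 5 lower than in DS (16.4% and 33.4%). In DP against DC 1 was higher and 2 lower (2.31% and 6.38%), and in DC against IFD 2 and 3 (17.9% and 19.7%). In DP against IFD 2 were higher and 4 lower (13.7% and 28.6%), and in DS against IFD 2 were higher and none lower (0.939% and 1.32%). Cd34, a surface protein of bulge keratinocytes that dermal fibroblasts also carry, averaged 189 ± 40.4 FPKM in DP, 9.46 ± 3.79 in DS, 78.5 ± 5.51 in DC and 10.9 ± 5.87 in IFD (SD, n = 3 each), as fibroblast markers did. Lhx2, a transcription factor of follicle stem cells, was lower in DP than in DS (log2 fold change -4.81, adjusted p = 2.27e-05), and Sox9, a regulator of outer root sheath, was too (log2 fold change -1.25, adjusted p = 0.00788).

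Inner root sheath keratins were the most abundant class in DS by mean and in DS replicates 1 and 4. In DS replicate 5 basal keratins were slightly above them (39.6% against 37.9% of the keratin sum). Krt71, the type II keratin of all inner root sheath layers, had 107, 402 and 37.2 FPKM in the DP libraries, 526, 512 and 269 in the DS libraries, 163, 165 and 61 in the DC libraries, and 146, 162 and 174 in the IFD libraries. DS replicates 1 and 4 were highest, and DP replicate 2 was above DS replicate 5. Krt71 was lower in DP than in DS (log2 fold change -1.82, adjusted p = 0.0371) and higher in DS than in DC (log2 fold change 1.81, adjusted p = 0.0417). The DP against DS call ended for Krt71 without DP replicate 1 or 4, DS replicate 1 or 4 (adjusted p = 0.0881 to 0.153), and it also ended with median-of-ratios scaling, without the filter and in a fit of both populations alone (adjusted p = 0.0705 to 0.142). The DS against DC call ended for Krt71 without DP replicate 1, DS replicate 1 or 4, DC replicate 1, 2 or 4, IFD replicate 1, 2 or 6 (adjusted p = 0.0511 to 0.15), with median-of-ratios scaling (adjusted p = 0.062) and without the filter (adjusted p = 0.157).

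Krt25, a type I partner of Krt71, had 74.8, 356 and 19.8 FPKM in the DP libraries, 363, 356 and 287 in the DS libraries, 122, 123 and 55.5 in the DC libraries, and 209, 219 and 170.3 in the IFD libraries. The DS libraries spanned a narrow range that DP replicate 2 reached, while DP replicate 4 was the lowest of all. Krt25 was lower in DP than in DS (log2 fold change -2.02, adjusted p = 0.0348). This call ended for Krt25 without DP replicate 1 or 4, DS replicate 1, 4 or 5 (adjusted p = 0.0628 to 0.132), with median-of-ratios scaling, without the filter and in a fit of both populations alone (adjusted p = 0.0757 to 0.138). That value was -1.02 without DP replicate 4. In DS against DC the difference of 1.81 did not pass (adjusted p = 0.0593). It did with quantile normalization (2.48, adjusted p = 0.0063), in a fit of both populations alone (adjusted p = 0.00291), and without DP replicate 2 (adjusted p = 0.00564), DP replicate 4 (adjusted p = 0.00867) or both DP replicates 1 and 2 (adjusted p = 0.000859). In DC against IFD, Krt25 was lower (-1.07) in a fit of both alone and without DP replicates 1 and 2 (adjusted p = 0.0178 to 0.0335). Without DP replicate 2 it was also lower in DP than in IFD (-2.33, adjusted p = 0.00334). Without DP replicates 1 and 2, Krt25 was lower in DP than in DC (-2.19, adjusted p = 0.0144), as were Krt27 (-1.63, adjusted p = 0.0442) and Krt28 (-2.23, adjusted p = 0.0436), with the lone DP library taken to vary like the others. In that fit Krt25 (-3.26, adjusted p = 0.000554), Krt27 (-1.95, adjusted p = 0.0063) and Krt71 (-2.08, adjusted p = 0.0166) were also lower in DP than in IFD, and Krt27 lower in DP than in DS (-1.69, adjusted p = 0.011).

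Krt28, a type I inner root sheath keratin, had 16, 38 and 2.60 FPKM in the DP libraries, 199.6, 167 and 154 in the DS libraries, 15.3, 34.6 and 7.34 in the DC libraries, and 133, 112 and 145 in the IFD libraries. All DS and IFD libraries were above all DP and DC libraries. Krt28 was lower in DP than in DS (log2 fold change -3.70 with SE 0.69, adjusted p = 0.000829) and than in IFD (log2 fold change -3.29 with SE 0.69, adjusted p = 0.00244). Krt28 was also higher in DS than in DC (log2 fold change 3.36 with SE 0.69, adjusted p = 0.00186) and lower in DC than in IFD (log2 fold change -2.94 with SE 0.69, adjusted p = 0.0051). These 4 calls held with each library left out in turn.

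Krt27, a type I inner root sheath keratin as well, had 44.2, 193 and 14.1 FPKM in the DP libraries, 43.5, 54.1 and 46 in the DS libraries, 58.7, 61.4 and 26.1 in the DC libraries, and 50.01, 68.5 and 55 in the IFD libraries. The populations overlapped, with DP replicate 2 the highest and DP replicate 4 the lowest library, and no contrast passed with all libraries. Krt27 and Krt25 share 11.1% and 10.9% of their 50-base windows with other genes, mainly each other. The type I keratins of this layer therefore stood in different proportions to Krt71. Krt27 to Krt71 was 0.412, 0.479 and 0.379 in DP, 0.0826, 0.106 and 0.171 in DS, 0.361, 0.372 and 0.429 in DC, and 0.342, 0.423 and 0.315 in IFD. Krt28 to Krt71 was 0.149, 0.0945 and 0.0699 in DP, 0.38, 0.326 and 0.572 in DS, 0.094, 0.21 and 0.12 in DC, and 0.908, 0.694 and 0.83 in IFD. The DS libraries were lowest in the first ratio, and DS and IFD were above DP and DC in the second. Krt25 to Krt71 was 0.698, 0.887 and 0.533 in DP, 0.69, 0.696 and 1.07 in DS, 0.749, 0.745 and 0.91 in DC, and 1.43, 1.35 and 0.976 in IFD, and the DS and IFD ranges overlapped.

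**Figure D3:**
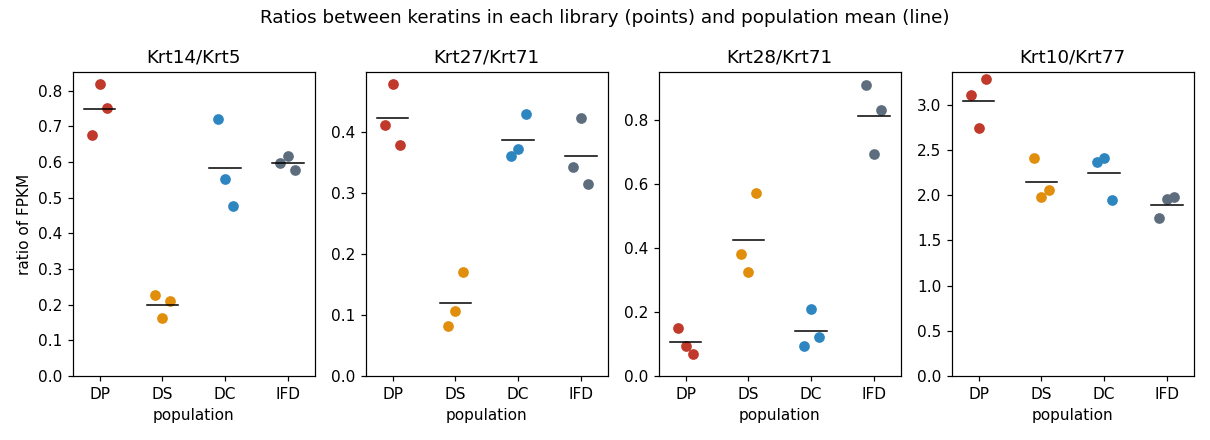
Ratio of FPKM between keratins of one layer (vertical axis) in each library (points) with the population mean (line), for DP, DS, DC and IFD. The DS libraries sit between 0.162 and 0.227 for Krt14 to Krt5 and between 0.0826 and 0.171 for Krt27 to Krt71, below all other libraries, and the DP libraries lie above all others for Krt10 to Krt77.

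Krt73, a type II keratin of the inner root sheath cuticle, had 9.41, 56 and 2.58 FPKM in the DP libraries, 22, 17 and 11.3 in the DS libraries, 14.8, 19.9 and 5.67 in the DC libraries, and 86.1, 66.9 and 52.4 in the IFD libraries. The IFD libraries were highest, apart from DP replicate 2, which lay within their range. Krt73 was lower in DC than in IFD (log2 fold change -2.39, adjusted p = 0.0251) and in DP than in IFD (log2 fold change -2.40 with SE 0.75, adjusted p = 0.0218). The DC against IFD call ended for Krt73 without DC replicate 4, IFD replicate 1 or 2 (adjusted p = 0.0628 to 0.0917). Against IFD the DP call ended for Krt73 without DP replicate 1 or 4, IFD replicate 1 or 2 (adjusted p = 0.0564 to 0.0791), where the value was -1.48 without DP replicate 4. Both ended without the filter (adjusted p = 0.111 and 0.0998). Without DP replicate 2, Krt73 was lower in DP than in DS (-1.50, adjusted p = 0.0344), and without DP replicates 1 and 2 as well (-2.27, adjusted p = 0.00985). Krt73 was lower in DS than in IFD (-1.98) in a fit of both populations alone (adjusted p = 0.00796) and without DP replicates 1 and 2 (adjusted p = 0.0255).

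Krt26, a type I keratin of the same cuticle, had 0.107, 2.75 and 0.0281 FPKM in the DP libraries, 3.02, 1.18 and 2.93 in the DS libraries, 0.783, 0.748 and 0.191 in the DC libraries, and 12.6, 2.78 and 9.48 in the IFD libraries. Its IFD libraries had the highest mean, and IFD replicate 2 was level with the highest libraries of DP and DS. Krt26 was lower in DC than in IFD (log2 fold change -2.40, adjusted p = 0.00472) and in DP than in IFD (log2 fold change -2.33, adjusted p = 0.00508). Without DP replicate 2 it was also lower in DP than in DS (-1.61, adjusted p = 0.0207). The gene was higher in DS than in DC with quantile normalization (1.34, adjusted p = 0.0485) and in a fit of both populations alone (1.07, adjusted p = 0.0249). Krt72, a further type II cuticle keratin, ranged from 0.0409 to 6.58 FPKM and passed in no contrast, and Krt74, the type II keratin of Huxley's layer, stayed at or below 0.743 FPKM.

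Among 6 tested inner root sheath and medulla genes, Cux1 had the widest differences. Cux1, a homeodomain factor found in inner root sheath, had 12.5, 20.4 and 8.56 FPKM in the DP libraries, 246, 235 and 355 in the DS libraries, 29.6, 64.8 and 43.1 in the DC libraries, and 81.8, 74.7 and 99.5 in the IFD libraries. The DS libraries were above all others and the DP libraries below all others. Cux1 was lower in DP than in DS (log2 fold change -4.29, adjusted p = 2.46e-06), higher in DS than in IFD (log2 fold change 1.68, adjusted p = 0.0197) and lower in DP than in DC (log2 fold change -1.67, adjusted p = 0.00899). Gata3, a factor needed for inner root sheath, averaged 40.9 ± 27.6 FPKM in DP, 71.3 ± 19 in DS, 13 ± 6.56 in DC and 47.4 ± 6.66 in IFD (SD, n = 3 each) and was higher in DS than in DC (log2 fold change 2.43, adjusted p = 0.00272). Over the 6 genes, DS against DC had 2 higher (24.3% of all genes), DC against IFD 3 lower (19.7%) and DP against IFD 2 lower (28.6%). The other comparisons had 1 gene each, which was Cux1. Of all genes, 33.4% were lower in DP than in DS, 6.38% lower in DP than in DC and 0.939% higher in DS than in IFD.

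Among hair shaft keratins, Krt35 set the IFD libraries apart. Krt35, a type I keratin that comes up early in hair matrix, cortex and cuticle, had 15.5, 37 and 5.81 FPKM in the DP libraries, 8.70, 8.17 and 8.26 in the DS libraries, 14.2, 16.1 and 6.05 in the DC libraries, and 365, 306 and 254 in the IFD libraries. The lowest IFD library had 254 FPKM and the highest other library 37.0. Krt35 was lower in DP than in IFD (log2 fold change -4.23 with SE 0.49, adjusted p = 5.31e-05), in DS than in IFD (log2 fold change -5.03 with SE 0.49, adjusted p = 0.000443) and in DC than in IFD (log2 fold change -4.64 with SE 0.49, adjusted p = 2.18e-05), and these calls held with each library left out in turn. Without DP replicate 4, Krt35 was higher in DP than in DS (1.42, adjusted p = 0.012). It shares 3.95% of its 50-base windows with other genes.

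Krt36, a type I keratin of hair cortex, had 1.40, 4.84 and 0.0878 FPKM in the DP libraries, 0.220, 0.0391 and 2.11 in the DS libraries, 2.13, 1.14 and 0.895 in the DC libraries, and 7.14, 6.21 and 8.77 in the IFD libraries. The IFD libraries were above all others. Krt36 was lower in DP than in IFD (log2 fold change -1.74, adjusted p = 0.022), in DS than in IFD (log2 fold change -2.39 with SE 0.55, adjusted p = 0.0427) and in DC than in IFD (log2 fold change -1.83, adjusted p = 0.0194). The DP against IFD call ended for Krt36 without DP replicate 1 or 4, IFD replicate 1 or 6 (adjusted p = 0.0537 to 0.0822), with -1.15 without DP replicate 4. The DS against IFD call ended for Krt36 without DP replicate 1, DS replicate 1 or 4, DC replicate 1, 2 or 4, IFD replicate 1, 2 or 6 (adjusted p = 0.0503 to 0.143). The DC against IFD call ended for Krt36 without DC replicate 2 or 4, IFD replicate 1 or 6 (adjusted p = 0.0506 to 0.0587). All 3 ended with a pseudocount of 0.1 (adjusted p = 0.0714 to 0.121), without the filter (0.0811 to 0.161) and with the block over 12 libraries (0.0536 to 0.116).

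Krt31, a type I keratin of the hair cortex, had 3.44, 27.9 and 5.18 FPKM in the DP libraries, 0.232, 3.67 and 8.93 in the DS libraries, 11.9, 17.4 and 6.63 in the DC libraries, and 11.6, 4.79 and 10.1 in the IFD libraries. Its populations overlapped, and DP replicate 2 was highest and DS replicate 1 lowest. Without DS replicate 5 it was lower in DS than in DC (-2.34, adjusted p = 0.0336). It shares 28.1% of its 50-base windows with other genes, chiefly Krt34, so its level is uncertain. Krt81, a type II cortex keratin, had 3.36, 16.2 and 1.31 FPKM in the DP libraries, 0.341, 2.72 and 2.79 in the DS libraries, 5.69, 3.80 and 2.74 in the DC libraries, and 3.32, 3.09 and 2.17 in the IFD libraries. DP replicate 2 was again the highest and DS replicate 1 the lowest, and 43.5% of its windows occur elsewhere, mostly in Krt86, a further cortex keratin that stayed at or below 2.91 FPKM. Without DP replicate 4, Krt81 was higher in DP than in DS (1.70, adjusted p = 0.0278).

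Krt39, a type I keratin of the late shaft, was listed at 0 in the DC libraries and had 2.16, 1.72 and 0.381 FPKM in IFD. It was lower in DC than in IFD (log2 fold change -1.19, adjusted p = 0.0187), a call that ended for Krt39 without DC replicate 1 (adjusted p = 0.056). The gene reached 1 FPKM only in DP replicate 4, IFD replicate 1 and IFD replicate 2, and fell under the filter without any 1 of them. It was thus tested largely because of IFD, where it was high, and its IFD calls lean on that. Krt39 was lower in DP than in IFD without IFD replicate 6 (adjusted p = 0.0323). Krt32, of the shaft cuticle, ranged from 0.0873 to 5.81 FPKM, and Krt34 from 0.0380 to 9.95 FPKM, with DP replicate 2 highest in both. Neither passed in any contrast, though Krt34 was higher in DP than in DS with median-of-ratios scaling (1.54, adjusted p = 0.0354), without DP replicate 1 (1.74, adjusted p = 0.0347) and without DS replicate 5 (1.70, adjusted p = 0.0443). Krt34 shares 33.1% of its 50-base windows with other genes, chiefly Krt31, so its level is uncertain. Krt83, a cortex keratin, was listed at 0 in 7 libraries and at 2.21 to 4.70 FPKM in the other 5, 1 or 2 of each population, and passed in no contrast. It shares 23.2% of its windows with other genes. Of the 5 shaft keratins under the filter, none exceeded 2.91 FPKM.

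Late genes of the shaft gave few calls. Of 53 keratin-associated protein entries, whose products cross-link shaft keratins, 15 were tested. Of these 1 was higher in DP than in DS and 1 higher in DP than in IFD, where 16.4% and 13.7% of all genes were. There were no other calls, while 43.9% of all genes passed in DS against DC and 37.6% in DC against IFD. Levels could spread widely within a population, as for Krtap8-1, so the few calls do not show equal levels. The most abundant, Krtap8-1, had 73.3, 454 and 72 FPKM in the DP libraries, 2.37, 80.03 and 57.9 in the DS libraries, 127, 143 and 61.6 in the DC libraries, and 169, 64.8 and 57.7 in the IFD libraries. DP replicate 2 was the highest library and DS replicate 1 the lowest, as for Krt31 and Krt81. Krt33a and Krt33b, type I cortex keratins with a lettered symbol and so outside the rule, peaked in DP replicate 2 at 57.5 and 16.2 FPKM. Krt33b was lower in DS than in DC (log2 fold change -1.73, adjusted p = 0.0439).

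Of 9 regulators of the hair shaft with its desmoglein Dsg4, 8 were lower in DC than in IFD (19.7% of all genes). In DP 8 were lower and 1 higher than in IFD (28.6% and 13.7%). In DS 6 were higher and 1 lower than in DC (24.3% and 19.6%), and in DP 5 were lower and 1 higher than in DS (33.4% and 16.4%). In DS against IFD 1 was lower (1.32%), Dsg4, and in DP against DC 1 was higher (2.31%), Prdm1. Lef1, a Wnt effector of hair matrix, had 6.72, 17.9 and 33.6 FPKM in the DP libraries, 12.1, 49.8 and 36.6 in the DS libraries, 3.72, 3.85 and 5.21 in the DC libraries, and 105, 94.6 and 61.4 in the IFD libraries. Dlx3, a homeobox factor of matrix and shaft, had 3.73, 15.1 and 2.08 FPKM in the DP libraries, 78.9, 112 and 180.5 in the DS libraries, 8.02, 18.6 and 7.38 in the DC libraries, and 86.1, 148 and 91.7 in the IFD libraries. Msx2, a further factor of hair matrix, had 5.70, 10.2 and 8.99 FPKM in the DP libraries, 40.7, 90.8 and 90.6 in the DS libraries, 3.83, 10.8 and 8.43 in the DC libraries, and 83.5, 91 and 50.8 in the IFD libraries. Dlx3 and Msx2 were high in DS and IFD alike, whereas Krt35 was high in IFD alone. Lef1 was lower in DC than in IFD (log2 fold change -4.04, adjusted p = 0.000109), Dlx3 lower in DP than in DS (log2 fold change -4.26, adjusted p = 5.98e-05), and Msx2 higher in DS than in DC (log2 fold change 3.12, adjusted p = 6.44e-05).

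Among simple epithelial keratins, Krt20 led in DC. Krt20, a type I keratin of Merkel cells and gut epithelium, had 7.05, 3.24 and 3.67 FPKM in the DP libraries, 0.949, 0.0338 and 0.690 in the DS libraries, 28.4, 9.67 and 27.2 in the DC libraries, and 1.03, 0.804 and 2.19 in the IFD libraries. The DC libraries were above all others and the DP libraries above DS and IFD. Krt20 was lower in DP than in DC (log2 fold change -1.93 with SE 0.43, adjusted p = 0.0164), lower in DS than in DC (log2 fold change -3.78 with SE 0.43, adjusted p = 3.17e-05), higher in DP than in DS (log2 fold change 1.85, adjusted p = 0.00368), higher in DC than in IFD (log2 fold change 3.19 with SE 0.43, adjusted p = 0.000134) and higher in DP than in IFD (log2 fold change 1.26, adjusted p = 0.0329). The DP against DC call ended for Krt20 without DP replicate 2, DC replicate 1 or 4 (adjusted p = 0.0518 to 0.0784), with a pseudocount of 0.1, without the filter, in a fit of both populations alone and without DP replicates 1 and 2 (adjusted p = 0.0523 to 0.106). The DP against IFD call ended for Krt20 without DP replicate 1, IFD replicate 1 or 2 (adjusted p = 0.0902 to 0.123), with a pseudocount of 0.1, without the filter and without DP replicates 1 and 2 (adjusted p = 0.0765 to 0.203), where the DP against DS call ended too (adjusted p = 0.0521).

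Merkel cell markers were measured beside Krt20. Of the 10 markers, 4 were tested (Krt18, Krt20, Piezo2 and Sox2). Among them 3 were higher and 1 lower in DP than in DS (16.4% and 33.4% of all genes). In DP 3 were higher than in IFD (13.7%) and 1 lower than in DC (6.38%). In DS 1 was higher and 1 lower than in DC (24.3% and 19.6%), and 1 was higher in DC than in IFD (17.9%). The gene lower in DP than in DS and higher in DS than in DC was Krt18, which was tested because of DS. Piezo2, a mechanically gated channel, had 1.53, 2.98 and 8.52 FPKM in the DP libraries, 0.561, 0.140 and 0.0844 in the DS libraries, 0.508, 0.669 and 1.39 in the DC libraries, and 0.304, 0.640 and 1.16 in the IFD libraries. Sox2, a transcription factor that dermal papilla cells also make, had 0.882, 2.66 and 7.17 FPKM in the DP libraries, 0.0373, 0.292 and 0.130 in the DS libraries, 1.15, 1.17 and 1.11 in the DC libraries, and 0.260, 0.345 and 0.117 in the IFD libraries. Piezo2 and Sox2 were thus both highest in DP replicate 4, where Krt20 was not. The mice carried a green reporter at Sox2, so the Sox2 level may not be independent of the sort. Krt8, the type II partner of type I keratins in Merkel cells and simple epithelia, stayed at or below 0.304 FPKM in each library, and 4 libraries listed it at 0. Atoh1, the transcription factor that defines Merkel cells, was listed at 0 in 11 libraries and at 0.0157 FPKM in DC replicate 1. The remaining 4 markers stayed at or below 0.459 FPKM. The 10 markers, Krt20 included, summed to 9.0 to 19.8 FPKM in DP, 2.2 to 3.7 in DS, 12.6 to 30.3 in DC and 2.2 to 4.2 in IFD. The part of Merkel cells in the Krt20 level was not tested.

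Krt18, the type I partner of Krt8, had 0.0397, 0 and 0.417 FPKM in the DP libraries, 1.35, 1.40 and 1.79 in the DS libraries, 0.188, 0.761 and 0.248 in the DC libraries, and 0.685, 0.0336 and 0.515 in the IFD libraries. The DS libraries were the highest. Krt19, a type I keratin of bulge and simple epithelia, had 0.364, 0.202 and 0.0532 FPKM in the DP libraries, 1.22, 1.47 and 6.82 in the DS libraries, 0.550, 0.910 and 0.217 in the DC libraries, and 0.0930, 0.719 and 0.454 in the IFD libraries, and it too was highest in DS. Both reached 1 FPKM in DS libraries only, so the filter admitted them through DS, and both fell under the filter without any 1 of the DS libraries. Their DS contrasts are therefore given as levels, although the counts above hold them as higher in DS than in DC and lower in DP than in DS.

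Krt23, a type I keratin, had 12.9, 33.7 and 5.46 FPKM in the DP libraries, 14.7, 33.5 and 9.17 in the DS libraries, 5.14, 9.36 and 3.55 in the DC libraries, and 65, 52.1 and 35.2 in the IFD libraries. The IFD libraries were above all others, and DP replicate 2 and DS replicate 4 came closest. Krt23 was lower in DC than in IFD (log2 fold change -2.92 with SE 0.57, adjusted p = 0.00177) and in DP than in IFD (log2 fold change -1.78, adjusted p = 0.024). The DP against IFD call ended for Krt23 without DP replicate 1 or 4, IFD replicate 1 or 2 (adjusted p = 0.0598 to 0.0934), with median-of-ratios scaling (adjusted p = 0.0623) and without the filter (adjusted p = 0.1). In DS against DC the difference of 1.42 did not pass (adjusted p = 0.0604). It passed without DC replicate 2 (1.74, adjusted p = 0.0473), and in a fit of both populations alone or without DP replicate 2, DP replicate 4, DS replicate 5 or both DP replicates 1 and 2 (adjusted p = 0.0226 to 0.0376). Krt7, of simple and glandular epithelium, reached 1.98 FPKM in DS replicate 5 and less elsewhere.

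Krt79, grouped with the other keratins, was high in IFD like Krt35. This type II keratin, known in mice from the upper follicle and its duct to the sebaceous gland, had 20.4, 48.7 and 51.7 FPKM in the DP libraries, 4.64, 23 and 28.9 in the DS libraries, 18, 24 and 13 in the DC libraries, and 325, 379 and 245 in the IFD libraries. Every IFD library was above every other library. Krt79 was lower in DP than in IFD (log2 fold change -3.03 with SE 0.54, adjusted p = 0.000896), in DS than in IFD (log2 fold change -4.29 with SE 0.54, adjusted p = 0.00131) and in DC than in IFD (log2 fold change -4.06 with SE 0.54, adjusted p = 0.000115), and these calls held with each library left out in turn. In DP against DS the difference of 1.26 did not pass (adjusted p = 0.0674). It passed with both scalings and without DP replicate 1 or DS replicate 5 (adjusted p = 0.0197 to 0.0316). Sebaceous gland markers summed to 239.0 to 410.9 FPKM in DP, 217.6 to 266.2 in DS, 141.8 to 219.3 in DC and 215.7 to 388.2 in IFD, and so overlapped between DP, DS and IFD. Of these 6 genes 4 were lower in DC than in IFD (19.7% of all genes), and 1 was higher and 1 lower in DP than in IFD (13.7% and 28.6%). In DS against IFD limma called 0 (2.26%), and 1 was lower at an unadjusted p below 0.05. Most of the sum was Mgst1, a widely made glutathione transferase, and single genes differed from it. Awat2, a wax synthase of the gland, had 0, 1.59 and 0 FPKM in the DP libraries, 0.509, 1.61 and 0.592 in the DS libraries, 0.528, 0.0859 and 0 in the DC libraries, and 2.01, 1.86 and 1.19 in the IFD libraries. Scd1, a fatty acid desaturase, had 36.1, 56.7 and 64.1 FPKM in the DP libraries, 43.5, 49.8 and 56.7 in the DS libraries, 12.4, 18.6 and 11.4 in the DC libraries, and 68.6, 54.9 and 114 in the IFD libraries. The means of both were highest in IFD, but levels of the other markers are not given here, and Awat2 was named after its values were seen. As a list the markers did not set IFD apart from DP and DS, and their highest sum was in DP replicate 4 (410.9 FPKM). The part of sebaceous cells in the Krt79 level was not tested. Of the rest, Krt24 ranged up to 2.83 FPKM (IFD replicate 6) and passed in no contrast, except without DP replicate 4, where it was higher in DP than in DS (1.42, adjusted p = 0.023). The others, Krt4, Krt12, Krt13, Krt42, Krt76 and Krt222, did not pass the filter. Without the filter Krt42 was lower in DP than in DS (-0.90, adjusted p = 0.0392) and Krt222 lower in DP than in IFD (-0.89, adjusted p = 0.0391) and in DC than in IFD (-0.87, adjusted p = 0.0465).

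**Figure D4:**
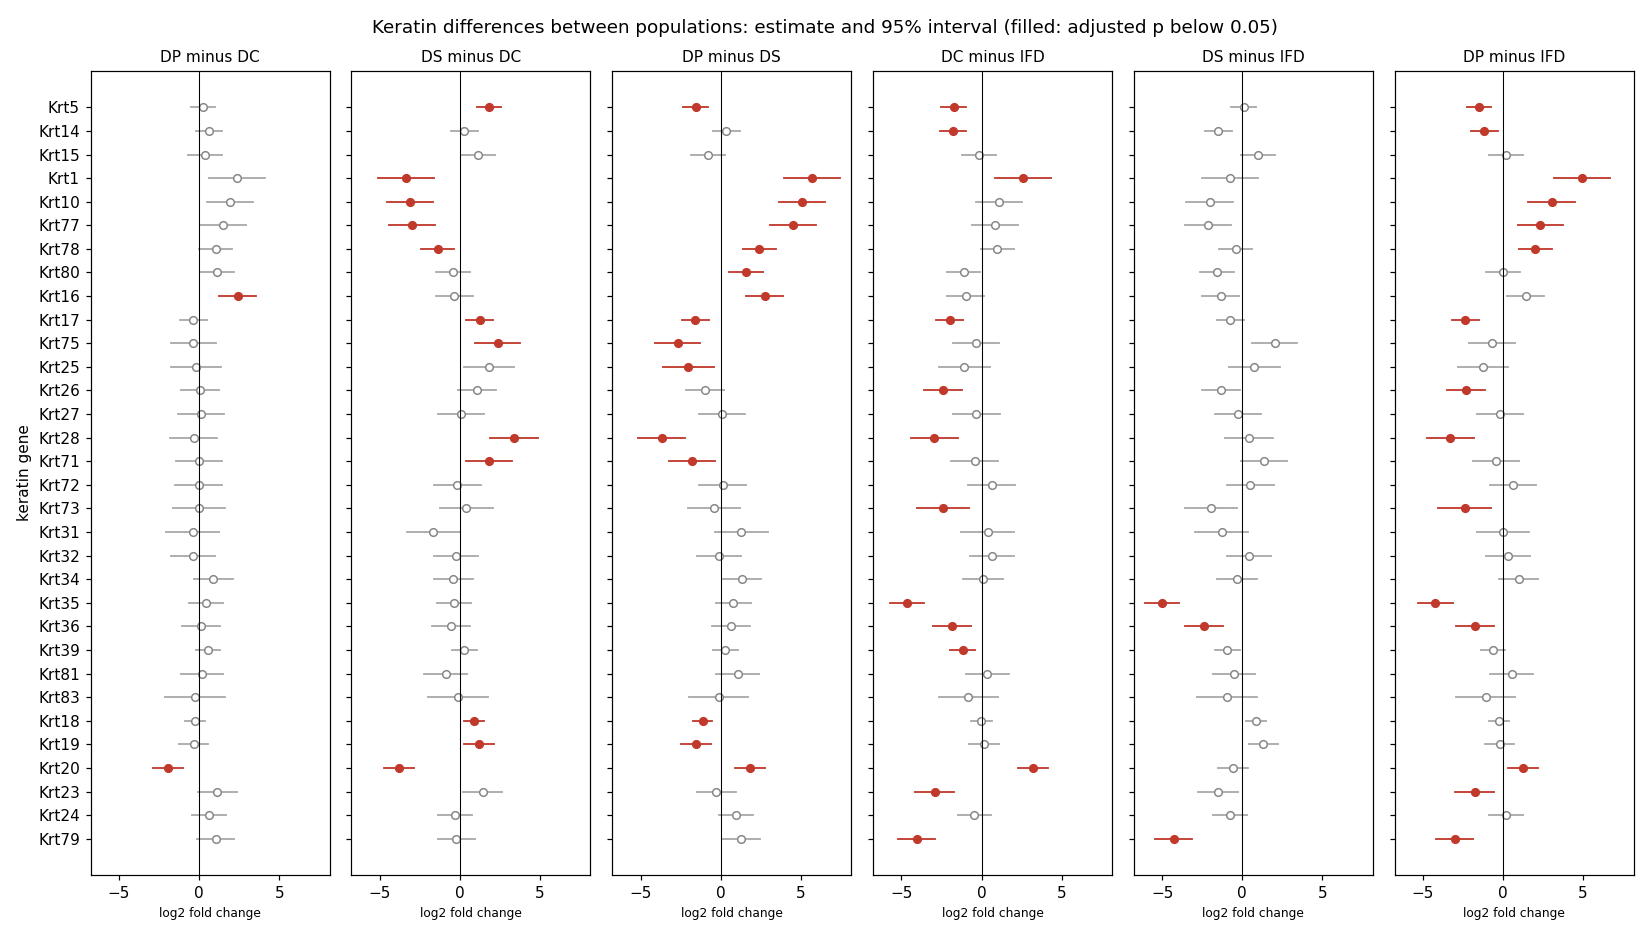
Log2 fold change of each tested keratin (rows) with its 95% interval in the 6 comparisons (panels), filled red where the adjusted p passed. The suprabasal keratins Krt1, Krt10 and Krt77 lie far to the right for DP minus DS, and Krt35 and Krt79 far to the left in the 3 panels against IFD.

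Neighbours in a gene cluster had their highest means in the same population in some cases and in different ones in others. On chromosome 11, Krt10 stands next to Krt28 among the tested members (99385254 to 99397449 and 99365007 to 99374903), yet Krt10 averaged 1528 ± 829 FPKM in DP and 53.4 ± 45.2 in DS, whereas Krt28 averaged 18.8 ± 17.9 in DP and 173 ± 23.6 in DS (SD, n = 3 each). Krt35 and Krt36 are neighbours (100092192 to 100096224 and 100102012 to 100109487) and were both highest in IFD. On chromosome 15, Krt1 and Krt77 lie side by side (101845426 to 101850786 and 101858731 to 101869706) and were both highest in DP, and Krt5 and Krt71 do likewise (101707069 to 101712905 and 101733949 to 101743097) and were both highest in DS. These neighbours were picked after their levels were seen.

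**Figure D5:**
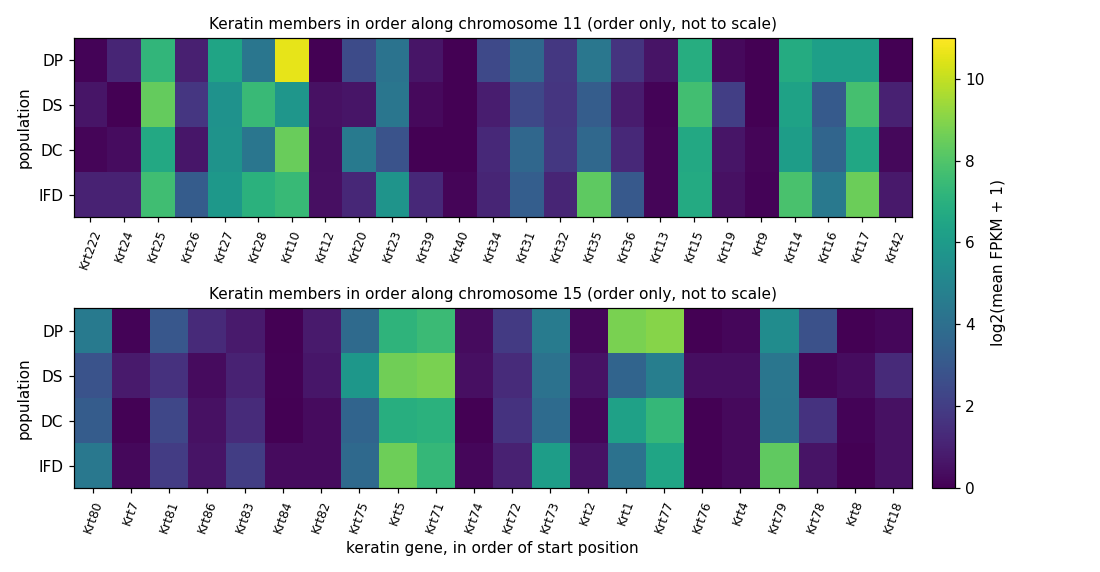
Mean level of keratin members as log2(mean FPKM + 1) by colour, for DP, DS, DC and IFD (rows, from top), with genes in order along chromosome 11 and chromosome 15 (columns, not to scale). Krt10 is brightest in DP beside Krt28, which is brightest in DS, and Krt35 and Krt79 stand out in the IFD row.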

How the data were processed

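The authors deposited 1 table of FPKM values with a column for each library and no further scaling stated. Per the submitters' processing notes, TopHat2 2.0.13, SAMtools and Cufflinks 2.2.1 were used with mm10, while the annotation, strand setting and counts are not given in the sources used here, so depth behind a value is unknown. FPKM summed to 181683 to 262695 per library, and relative depth, read from the steps of low values, ran from 0.633 to 1.93 of DC replicate 2. Entries that reached 1 FPKM in 3 or more libraries went into one limma fit (3.58.1, R 4.3.3) of log2(FPKM + 1), with 4 population means, a mean-variance trend, 8 residual degrees of freedom and two-sided tests. Benjamini-Hochberg adjustment ran over all 12774 genes of each contrast, with a threshold of 0.05, and the script was tested on simulated data. Fold changes on the log2(FPKM + 1) scale understate those of low genes.

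Members and lists were chosen with earlier results of these data known. Members averaging at least 5 FPKM in a population were given in each library, those that passed got fold changes with an SE for the 6 largest per contrast, and lists were named by up to 3 genes of highest mean. Other genes of these lists, Gm names and neighbours were named after their values were seen. Deviations from the population means of same-numbered DP and DC libraries correlated at 0.306, 0.241 and 0.389 across genes. Libraries of unlike number were not compared in this way, so these values do not show that the numbers pair samples. The block in the DP and DC libraries assumes it. The share of 50-base windows found in transcripts of other genes, and exon overlaps, come from GENCODE vM21, which covers 46 members.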

Additional observations from a re-analysis of the deposited data

How the results depend on the processing

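Median-of-ratios scaling moved the split of called keratins in DP against DS to 9 higher and 6 lower, in place of 7 and 8. In DS against DC it gave 4 higher and 5 lower, in place of 7 and 5, or of 5 and 5 without Krt18 and Krt19, which the filter admitted through DS. None of the 60 called fold changes, which include those of Krt18 and Krt19, changed sign under the alternatives run. Of these 60, 60 passed with quantile normalization and without the mean-variance trend, 53 with a pseudocount of 0.1, with median-of-ratios scaling and with the replicate block over 12 libraries, 48 without DP replicates 1 and 2, and 40 without the filter, where 24692 genes were tested. In the 2-population fits 53 of 58 passed, since Krt78 in DS against DC and Krt39 in DC against IFD were under the filter. In DP against DC, 2 keratins passed, and the count was 1 with a pseudocount of 0.1, 0 without the filter and 1 in the 2-population fit. It was 4 with the replicate block over 12 libraries and 4 with it in the DP and DC libraries alone, where pairing is assumed. In DS against IFD, 3 passed, and the count was 6 without DP replicates 1 and 2 and 7 in the 2-population fit. With 1 library left out the counts ran from 0 to 6 in DP against DC, 7 to 14 in DS against DC, 10 to 16 in DP against DS, 9 to 14 in DC against IFD, 2 to 5 in DS against IFD, 9 to 16 in DP against IFD and 16 to 23 in the F test. Outside DP against DC, fewer than 3 pairs of libraries share a number (correlations -0.272 to 0.294), so the block over 12 libraries joins samples that share only a number, that of DS replicate 1 being read from the title DSL1, and its lost calls were Krt18, Krt19 and Krt78 in DS against DC, Krt18 in DP against DS and Krt36 in the 3 contrasts with IFD. Its added calls were Krt1 and Krt10 in DP against DC, Krt15, Krt23 and Krt25 in DS against DC, Krt79 in DP against DS, Krt10, Krt72 and Krt78 in DC against IFD, and Krt16, Krt39 and Krt72 in DP against IFD. The cause of these changes was not tested, except that no filter adds genes and that 2-population fits hold fewer libraries. With 3 libraries per population and no counts, low keratins such as Krt83 cannot be placed.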

Other observations

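Intermediate filaments other than keratins differed in both directions. Vim, the vimentin of mesenchymal cells, had 838, 779 and 1016 FPKM in the DP libraries, 191, 111 and 50.3 in the DS libraries, 1573, 1445 and 2095 in the DC libraries, and 132, 129.6 and 154 in the IFD libraries, so every DP and DC library was above every DS and IFD library. It was higher in DP than in DS (log2 fold change 3.08, adjusted p = 5.98e-05), lower in DS than in DC (-4.03, adjusted p = 1.01e-05) and higher in DC than in IFD (3.60, adjusted p = 2.45e-05). Lmnb1, a lamin of the nuclear lining, was lower in DP than in DS (-3.38, adjusted p = 0.000178) and higher in DS than in DC (2.74, adjusted p = 0.000882). Des, the desmin of muscle cells, was lower in DP than in DC (-2.57, adjusted p = 0.0186). Over the 7 tested genes of this list, 2 were higher and 4 lower in DS than in DC (24.3% and 19.6% of all genes). In DC 4 were higher and 2 lower than in IFD (17.9% and 19.7%). In DS against IFD limma called 0, with 0 at an unadjusted p below 0.05, where 2.26% of all genes passed. Melanocyte markers summed to 205.6 to 836.8 FPKM in DP, 20.8 to 29.9 in DS, 17.2 to 92.7 in DC and 170.3 to 969.6 in IFD. The IFD libraries were thus above those of DS and DC but overlapped those of DP, unlike Krt35 and Krt79, which were highest in IFD alone.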
